A study of Mus musculus with 6 samples.

Results

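The genes described here make the proteins that copy DNA in S phase, together with the switch that starts S phase and the enzymes that supply its nucleotides and new chromatin. A list of 37 such genes was taken by gene symbol from a count table of 40773 symbols, and 37 of 37 were present. All 37 were measured well enough to test. The cells were RAW264.7, a mouse macrophage line that divides in culture, of the genotype labelled plain. In the group with the antibody, cells received lipopolysaccharide (LPS, 100 ng/mL) together with 3A2, which neutralizes the membrane protease MMP14, given at 50 µg/mL for 24 h. In the group it is set against, cells received LPS at the same dose and for the same time with no antibody. Each group had 3 biological replicates, so both groups carried LPS. Cells without LPS and cells with a control antibody were not analysed here, and the label does not say whether a number marks cultures grown on a shared day.

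DNA replication is prepared in G1, when the origin recognition complex, Cdc6 and Cdt1 load the MCM helicase onto origins, and is fired in S phase when GINS joins that helicase. Cyclin E with its kinase, and E2F factors released from the retinoblastoma protein, drive the entry, and E2F factors switch on many of the genes listed here. LPS is known to slow the cycle of macrophages in culture. RNA was measured in bulk, so fewer cells in S phase and less RNA per cell cannot be told apart.

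The promoters of these genes are known for E2F sites. RefSeq promoter windows (assembly GRCm38.p6, 250 bases before to 50 after each annotated start) were matched by symbol for 30 of the 37 genes. They were searched on both strands for the E2F consensus words TTTCCCGC, TTTCGCGC, TTTGCCGC and TTTGGCGC. At least 1 word was present in a window of 12 of the 30 genes (40%), against 5.16% of the 9018 tested genes with a window and 2.61% of all 27025 genes with a window. A word was present for 8 of 21 matched regulators of G1 and S phase, and for 1 of 29 matched genes of G2 and mitosis. The count was 4 of 14 for origin recognition and firing and 5 of 19 for other polymerase and fork genes. For chromatin assembly it was 3 of 12, and for other nucleotide metabolism 1 of 17. The letters CCAAT, searched on both strands, were present for 19 of the 30 (63.3%), against 43.9% of tested genes. They were present for 61.9% of the matched regulators of G1 and S phase, 66.7% of the chromatin assembly genes and 75.9% of the genes of G2 and mitosis. Other lists lay near the share of tested genes. These were origin recognition and firing at 42.9%, other polymerase and fork genes at 42.1% and other nucleotide metabolism at 41.2%. A match is a description of the letters and not a measured binding site. The 8 stretches below show where an E2F word sits in genes of different replication steps, and the word differs between them. Each is 30 bases along the gene's own strand, with the word or its reverse complement in capitals.
Mcm5: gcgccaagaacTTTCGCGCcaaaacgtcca
Mcm6: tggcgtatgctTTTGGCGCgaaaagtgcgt
Mcm7: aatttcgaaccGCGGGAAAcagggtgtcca
Cdc6: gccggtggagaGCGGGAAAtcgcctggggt
Gins3: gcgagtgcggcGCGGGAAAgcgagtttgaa
Rfc3: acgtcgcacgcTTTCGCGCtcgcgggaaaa
Pola1: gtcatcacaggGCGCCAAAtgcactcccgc
Uhrf1: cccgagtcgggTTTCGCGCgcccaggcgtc

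The Mcm5 stretch lies at chr8:75109345-75109374 on the plus strand and the Mcm6 stretch at chr1:128359797-128359826 on the minus strand. Their words begin 153 and 110 bases before the start. In each of these 2 genes a second word on the opposite strand overlaps the first by 4 bases. The Mcm7 stretch lies at chr5:138172030-138172059 (minus strand), the Cdc6 stretch at chr11:98908002-98908031 (plus) and the Gins3 stretch at chr8:95633507-95633536 (plus). The Rfc3 stretch lies at chr5:151651200-151651229 (minus), the Pola1 stretch at chrX:93632275-93632304 (minus) and the Uhrf1 stretch at chr17:56304117-56304146 (plus). The Rfc3 word begins 10 bases before the start, and a further word lies at the start itself.

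The LPS plus 3A2 libraries held 6060732 to 6537419 counts and the LPS libraries 6431096 to 7432553. The 37 genes had 42 to 1510 counts in a library, and together took 0.25% to 0.255% of counts with 3A2 and 0.243% to 0.256% with LPS. Macrophage markers summed to 6368 to 6814 CPM with 3A2 (CPM, read counts scaled to a common library total) and 7306 to 7366 CPM with LPS, and 0 of 10 passed by edgeR. On the log2 scale 8 of these 10 lay below 0 between the groups and 2 above, where 50.4% of all genes tested lay above 0. Unadjusted p was under 0.05 by edgeR for 3 of the 10, where 6.51% of all genes tested had such a p. All libraries with 3A2 lay below those with LPS for 3 of the 10, and for 743 of 11498 genes tested. With the GC offset described further on, 4 of the 10 lay above 0. In that fit 1 of the 10 passed, Lyz2, which encodes lysozyme, at 0.868-fold, LPS plus 3A2 over LPS. Lyz2 made up much of the sum, averaging 3772 CPM with 3A2 and 4329 CPM with LPS. Lymphocyte markers summed to at most 0.167 CPM with 3A2 and 0.668 CPM with LPS. Fibroblast and epithelial markers summed to at most 0.333 CPM with 3A2 and 0.439 CPM with LPS, and neutrophil and mast cell markers to at most 7.5 CPM with 3A2 and 7.46 CPM with LPS. Of these 3 non-macrophage lists 1 gene was tested, S100a8, at 0.937-fold. LPS plus 3A2 replicate 3 stood apart, with mitochondrial mRNAs at a median of 0.39 above their mean over all libraries on the log2 scale. The other 5 libraries lay between -0.154 and 0.0944. Between the groups 13 of 13 mitochondrial mRNAs lay above 0, and 0 passed by edgeR. Their log2 fold changes had a median of 0.27. With the GC offset that median was 0.12 and 1 passed, mt-Nd1, at 1.17-fold. The most abundant by count, mt-Co1, stood at 1.12-fold, and mt-Nd4l, with the smallest p, at 1.22-fold.

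Adding 3A2 to LPS left the mRNA levels of the replication genes close to those with LPS alone. By edgeR's quasi-likelihood test 0 of 37 passed at a Benjamini-Hochberg adjusted p under 0.05, where 0% of the 11498 genes tested passed. DESeq2 and limma-voom also called 0 of 37. Fold changes, given throughout as LPS plus 3A2 over LPS, ran from 0.826 for Gins1 to 1.23 for Rfc3. The median log2 fold change was 0.029, against 0.0017 over all genes tested, and 21 of 37 lay above 0 (56.8%, against 50.4% of all genes tested). For 29 genes (78.4%) the 95% interval bounded the change to less than 1.3-fold up or down, and for 35 (94.6%) to less than 1.5-fold. Over all genes tested these shares were 55.1% and 79.6%. For 37 of 37 the bound was less than 2-fold. At an unadjusted p under 0.05 there was 1 gene, Rfc3, which is 2.7% of the list, where 6.51% of all genes tested had such a p. Without LPS plus 3A2 replicate 2 there were 6 (16.2%), Ccne2, Slbp, Pcna, Rrm1, E2f1 and Mcm7, where 15% of all genes had such a p, and 0 passed after adjustment. The libraries of the groups did not overlap for 4 genes (10.8%), Rfc3, Pola1, Rrm2 and Tk1, all higher with 3A2. That share was 12.3% over all genes tested, and 5.84% of all genes were higher in this way.

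**Figure D1:**
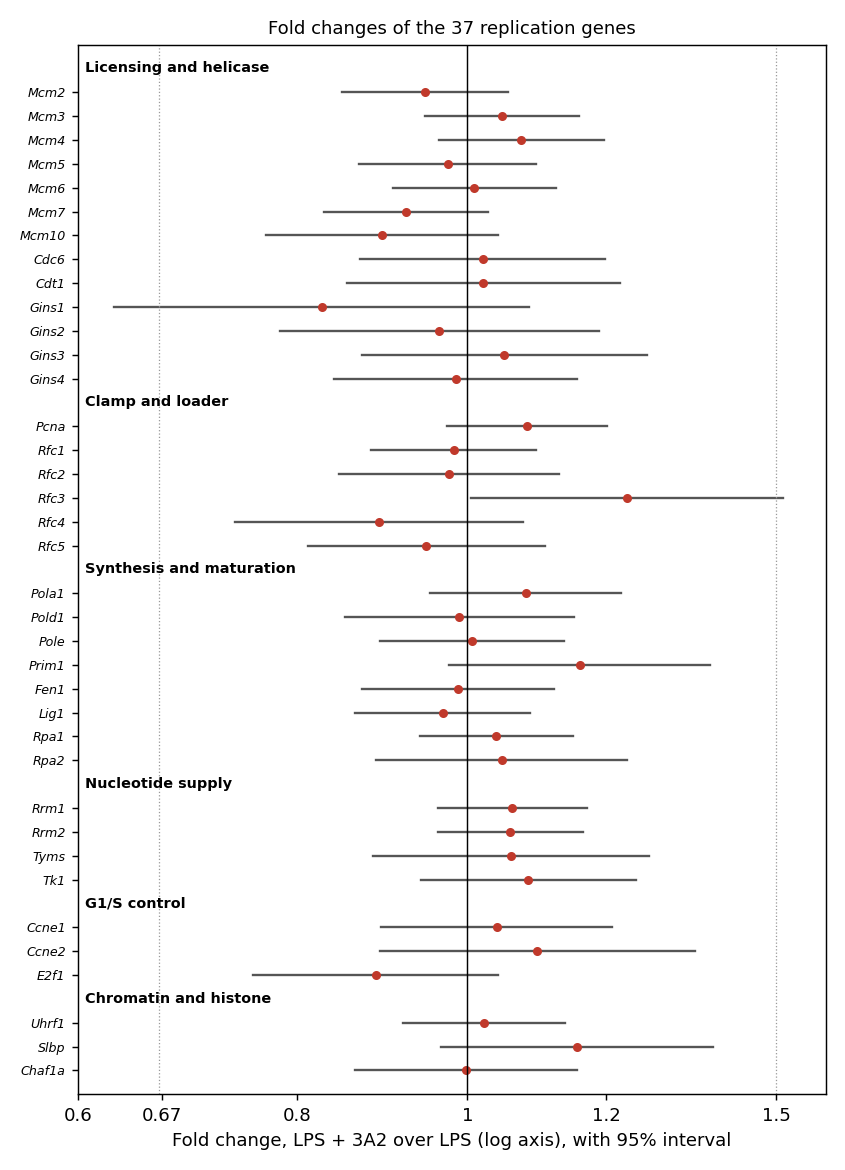
Fold change of each of the 37 genes, LPS plus 3A2 over LPS, on a log axis, with 95% intervals from edgeR (3 libraries per group). Genes are grouped by role, dotted lines mark 1.5-fold in either direction, and the intervals of Gins1 and Rfc3 cross those lines.

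The MCM genes encode the 6 subunits of the replicative helicase, MCM2 to MCM7, and all had fold changes between 0.923 and 1.07. Mcm7 had the smallest p among the licensing and helicase genes, at 107, 121 and 110 CPM with 3A2 and 117, 128 and 123 CPM with LPS. The lowest values were in LPS plus 3A2 libraries, and the ranges overlapped. Its fold change was 0.923 (95% interval 0.829 to 1.03), at an adjusted p of 0.806 by edgeR. Mcm3, the most abundant of these genes by count, measured 122, 131 and 126 CPM with 3A2 and 118, 120 and 124 CPM with LPS, or 1.05-fold (0.946 to 1.16). Mcm4 stood at 1.07-fold, Mcm6 at 1.01, Mcm5 at 0.975 and Mcm2 at 0.946.

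The loading and activating factors spread further, from 0.826-fold for Gins1 to 1.05-fold for Gins3. Cdc6 averaged 31 ± 2.65 CPM with 3A2 and 30.4 ± 2.47 CPM with LPS (SD, n = 3 each). Cdt1, its partner in loading, averaged 56.8 ± 9.73 CPM with 3A2 and 55.8 ± 8.16 CPM with LPS. Cdt1 had a broad spread in both groups, with 54.8, 67.4 and 48.3 CPM with 3A2 and 48.1, 55 and 64.4 CPM with LPS. Mcm10, which helps to activate the helicase, averaged 31.2 ± 0.967 CPM with 3A2 and 34.9 ± 2.9 CPM with LPS, or 0.894-fold (95% interval 0.767 to 1.04). The GINS genes encode the 4 subunits of a complex that joins the helicase at firing. Gins1, the least abundant of the 37 genes by count, had 42, 55 and 63 counts with 3A2 and 75, 67 and 74 with LPS. The libraries did not overlap as counts, but as CPM the ranges overlapped. Its interval, 0.629 to 1.08, is the widest among the 37 on the log scale. The other 3 GINS genes stood at 0.964 to 1.05-fold. Of the 13 genes of licensing and helicase, 6 lay above 0 and 7 below.

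PCNA is the ring that clamps polymerases to DNA, and replication factor C loads it. Pcna measured 213, 206 and 249 CPM with 3A2 and 207, 202 and 209 CPM with LPS. The high value belonged to LPS plus 3A2 replicate 3, while the other 2 libraries with 3A2 lay near the range with LPS. Rfc3, the loader subunit with the smallest p of the 37 genes, measured 16.5, 16.9 and 16 CPM with 3A2 and 13.4, 11.9 and 14.9 CPM with LPS. All libraries with 3A2 lay above all libraries with LPS. The fold change was 1.23 (95% interval 1.004 to 1.51), at an unadjusted p of 0.0457 and an adjusted p of 0.748 by edgeR. It rests on 96 to 110 counts a library with 3A2 and 89 to 97 with LPS. The other 4 loader subunits lay below 0, with Rfc1 at 0.982-fold, Rfc2 at 0.977, Rfc5 at 0.947 and Rfc4 at 0.891.

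Among the genes of synthesis and strand maturation, the primase and its polymerase partner stood highest. Prim1, the catalytic primase subunit that starts new strands, measured 28.5, 27.2 and 29.8 CPM with 3A2 and 21.9, 23.9 and 28 CPM with LPS. The lowest library with 3A2 lay below the highest with LPS. Its fold change was 1.16 (95% interval 0.976 to 1.38; adjusted p = 0.768 by edgeR). Pola1, the catalytic subunit of DNA polymerase alpha, measured 55.4, 53.2 and 54 CPM with 3A2 and 47.4, 52.1 and 51 CPM with LPS. The groups did not overlap, by a gap of about 1 CPM, and the fold change was 1.08 (0.953 to 1.22; adjusted p = 0.832 by edgeR). The catalytic subunits of the leading and lagging strand polymerases were level, with Pole at 1.01-fold and Pold1 at 0.989. Fen1, which trims the flaps of Okazaki fragments, stood at 0.988-fold, and Lig1, which seals them, at 0.968. Rpa1, the large subunit of the single-strand binding protein and the most abundant of this role by count, measured 135, 130 and 125 CPM with 3A2. It measured 126, 123 and 126 CPM with LPS, or 1.04-fold. Rpa2 stood at 1.05-fold (0.887 to 1.23).

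The 4 genes of nucleotide supply all lay above 0, between 1.06 and 1.08-fold, and none passed the test. Ribonucleotide reductase makes deoxynucleotides from its large subunit Rrm1 and small subunit Rrm2. Rrm2 measured 165, 168 and 177 CPM with 3A2 and 160, 163 and 158 CPM with LPS, so the groups did not overlap. The fold change was 1.06 (95% interval 0.962 to 1.16; adjusted p = 0.837 by edgeR). Rrm1 measured 208, 190 and 219 CPM with 3A2 and 193, 190 and 199 CPM with LPS, and the ranges overlapped. Tk1, the thymidine kinase that salvages thymidine in S phase, measured 40.5, 41 and 36.8 CPM with 3A2. It measured 36.6, 36.7 and 36 CPM with LPS. LPS plus 3A2 replicate 3 lay just above the LPS libraries and the other 2 stood clear of them. Its fold change was 1.08 (0.941 to 1.25; adjusted p = 0.84 by edgeR). Tyms, thymidylate synthase, averaged 26.6 ± 3.88 CPM with 3A2 and 25.2 ± 2.09 CPM with LPS (SD, n = 3 each).

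Of the 3 genes of the G1 to S switch, 2 lay above 0 and 1 below. E2f1, an activating E2F factor and itself an E2F target, measured 38.9, 43.2 and 33.2 CPM with 3A2 and 38.7, 43.3 and 48.3 CPM with LPS. The extremes were LPS plus 3A2 replicate 3 and LPS replicate 3, and the fold change was 0.886 (95% interval 0.755 to 1.04; adjusted p = 0.805 by edgeR). Ccne1, a cyclin E, measured 47.5, 42.9 and 39.8 CPM with 3A2 and 36.4, 43.8 and 45 CPM with LPS, or 1.04-fold. Ccne2, the other cyclin E gene, measured 30.9, 23.5 and 39 CPM with 3A2 and 29.2, 28.8 and 26.8 CPM with LPS. Its lowest and its highest library were both in the group with 3A2, and the fold change was 1.1 (0.892 to 1.35).

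Of the 3 genes that rebuild chromatin behind the fork, Slbp and Chaf1a varied most between libraries. Slbp binds the stem-loop of replication-dependent histone mRNAs, and measured 32.9, 28.1 and 39.8 CPM with 3A2 and 31.3, 29 and 26.8 CPM with LPS. The ranges overlapped, with LPS plus 3A2 replicate 3 highest, and the fold change was 1.15 (95% interval 0.965 to 1.38; adjusted p = 0.794 by edgeR). Uhrf1, which brings the maintenance DNA methyltransferase to new DNA, measured 103, 105 and 93.6 CPM with 3A2 and 99.4, 97.9 and 97.5 CPM with LPS. Chaf1a, a subunit of chromatin assembly factor 1, averaged 63.9 ± 9.23 CPM with 3A2 and 64.1 ± 5.72 CPM with LPS (SD, n = 3 each).

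**Figure D2:**
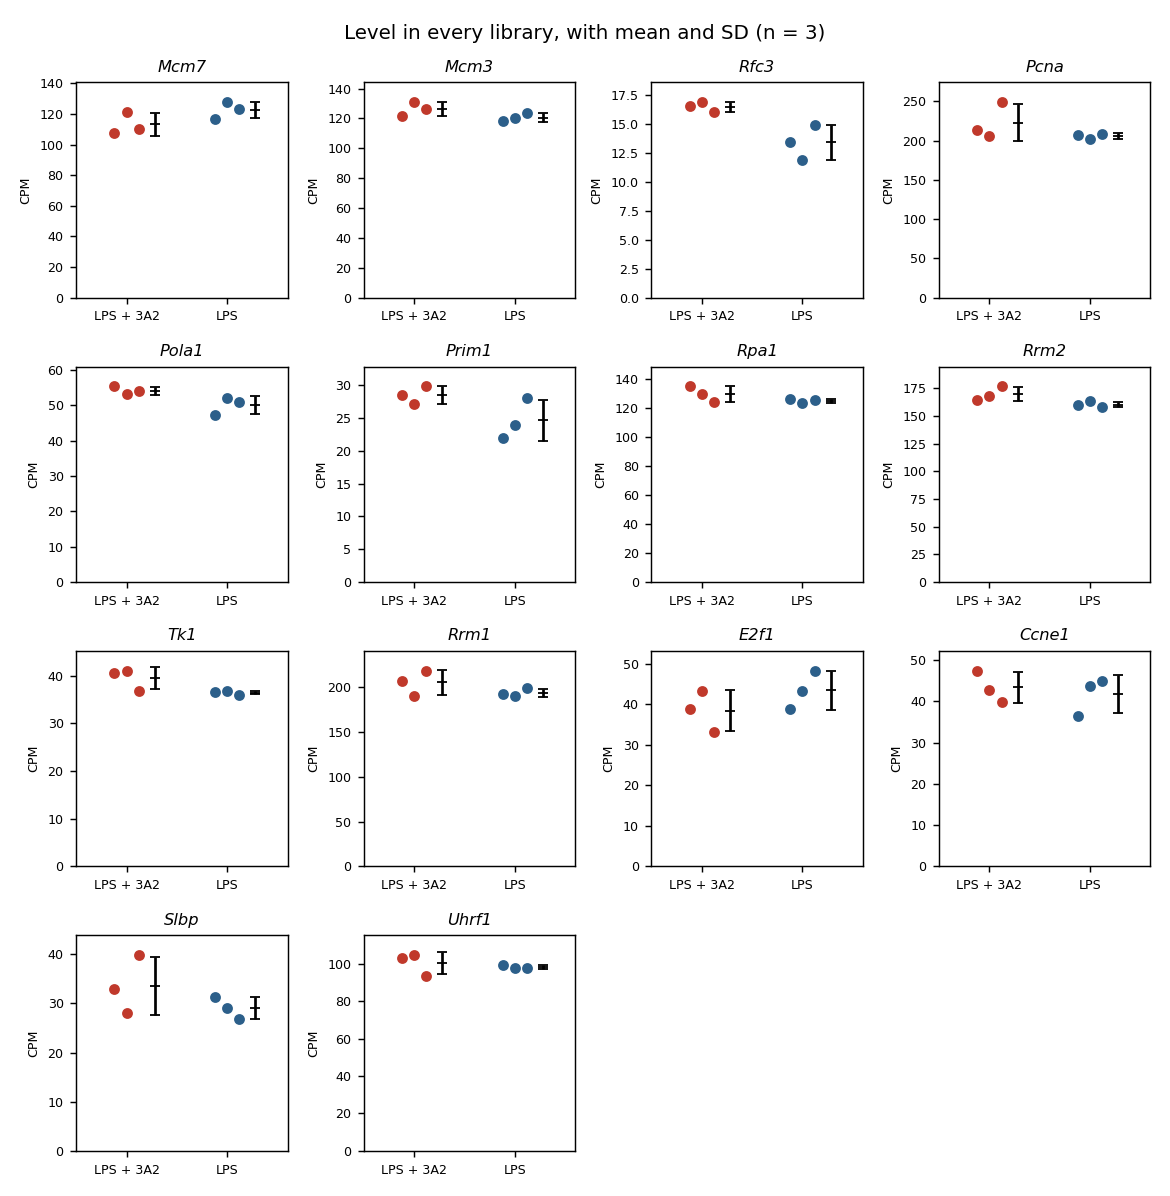
CPM in every library for 14 of the genes, on axes from 0, with LPS plus 3A2 at the left and LPS at the right of each panel. Points are libraries, and the bar beside them is the mean ± SD (n = 3). In Rfc3, Pola1, Rrm2 and Tk1 no library with 3A2 falls within the range of LPS.

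The genes varied more between libraries with 3A2 than between libraries with LPS, as did most genes tested. The median coefficient of variation was 8.31% with 3A2 and 5.04% with LPS, and it was larger with 3A2 for 29 of 37 genes (78.4%). Over all genes tested the medians were 10.1% with 3A2 and 7.34% with LPS, and 64.7% had the larger value with 3A2. The range over the 6 libraries was 0.13 on the log2 scale for Rpa1, the steadiest gene, and 0.723 for Ccne2, the most variable. These ranges had a pattern. LPS plus 3A2 replicate 3 stood 0.405 above the mean of all libraries for Ccne2, 0.356 above for Slbp and 0.221 above for Pcna. In the same library E2f1 stood at -0.291, Rfc2 at -0.232, Chaf1a at -0.216 and Cdt1 at -0.208. LPS plus 3A2 replicate 2 had the opposite order for many of them, with Cdt1 at 0.27, Pold1 at 0.247 and Chaf1a at 0.201 against Ccne2 at -0.318 and Slbp at -0.142.

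**Figure D3:**
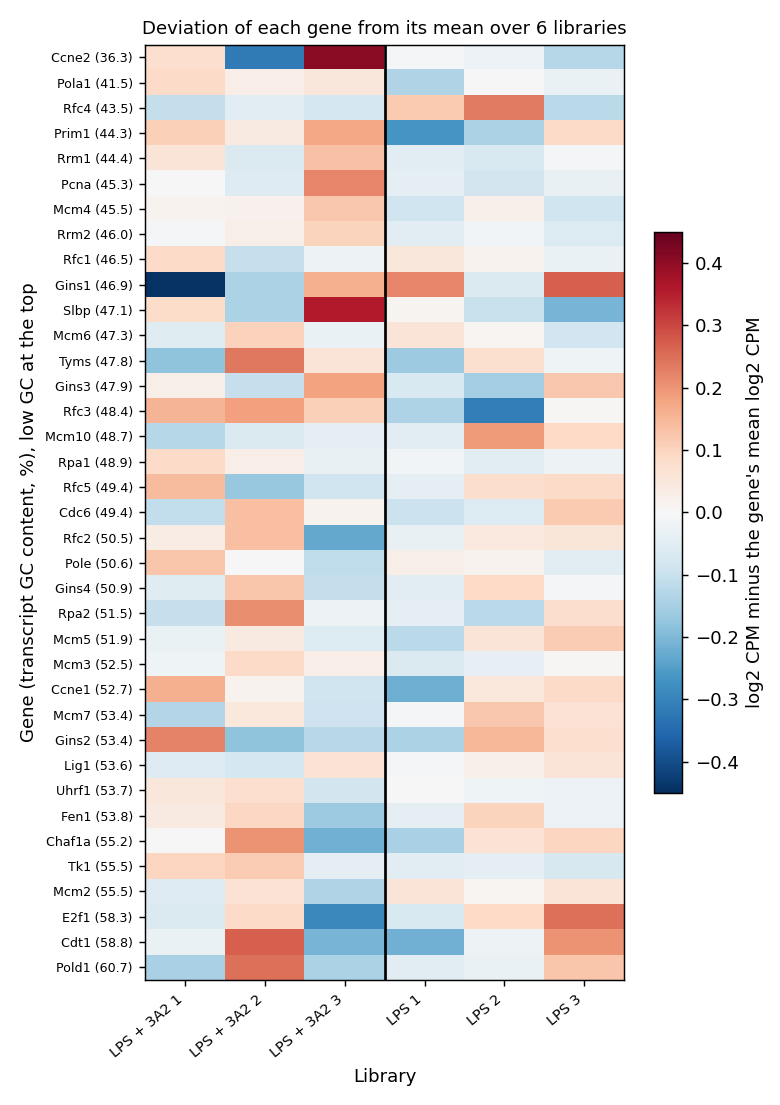
Deviation of the 37 genes in each library from their own mean over the 6 libraries, as log2 CPM (red higher, blue lower), with genes ordered by transcript GC content. The columns of LPS plus 3A2 replicates 2 and 3 run in opposite directions from the top of the plot to the bottom.

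This pattern moved with the base composition of the transcripts, taken from the longest protein-coding GENCODE M21 transcript of each gene. Across the 37 genes, Spearman's rho between GC content and deviation was -0.751 in LPS plus 3A2 replicate 3 and 0.491 in LPS plus 3A2 replicate 2. It was -0.158 in LPS plus 3A2 replicate 1, and -0.151, 0.261 and 0.487 in LPS replicates 1, 2 and 3. Over the 10308 tested genes with a GC value, the same quantity was -0.617, 0.433 and -0.142 in LPS plus 3A2 replicates 3, 2 and 1. It was -0.0403, 0.213 and 0.416 in LPS replicates 1, 2 and 3. The sign was the same for the replication genes and for all tested genes in each of the 6 libraries. Genes share their library and are not independent, and deviations of 6 libraries from a common mean sum to 0. The 12 genes of lowest GC content (36.3% to 47.3%) had a median deviation of 0.127 in LPS plus 3A2 replicate 3. The 12 of highest GC content (52.7% to 60.7%) had a median of -0.13 there.

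**Figure D4:**
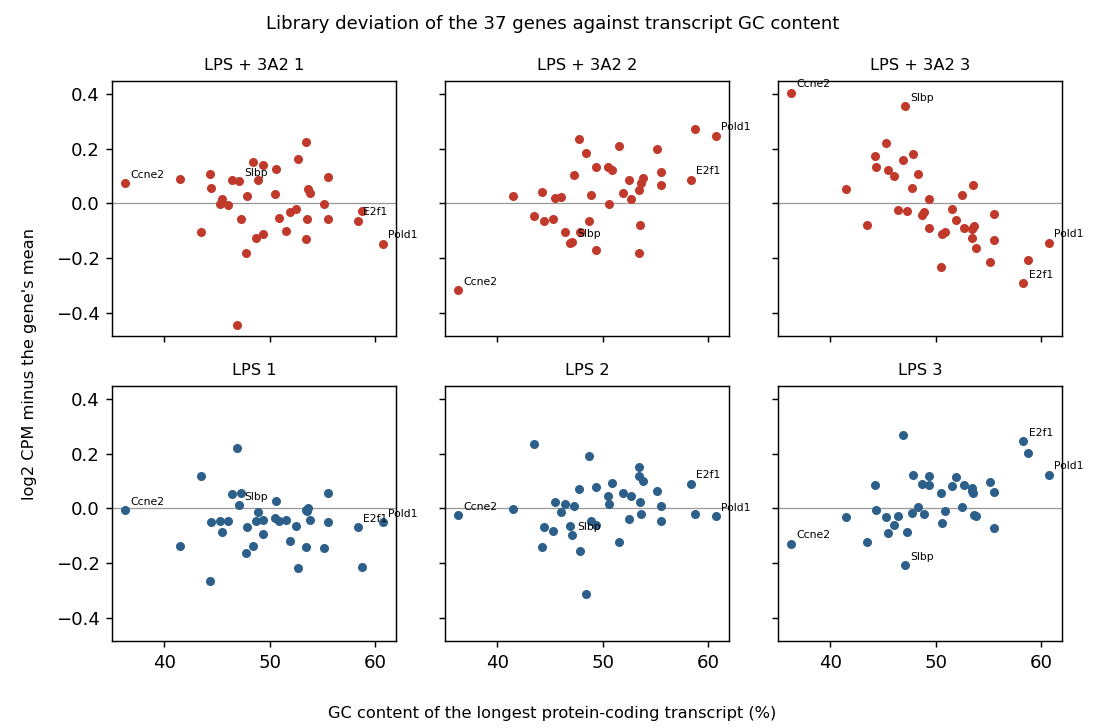
Deviation of each of the 37 genes in a library (log2 CPM minus the gene's mean) against the GC content of its transcript in percent, with LPS plus 3A2 libraries above and LPS libraries below. In LPS plus 3A2 replicate 3 the points fall from Ccne2 at 36.3% GC to E2f1 at 58.3% GC.

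With GC content entered as an offset for each library, an alternative chosen after the data were seen, 0 of 37 genes passed as before. The same fit called 23 of 10308 genes in all (0.223%). That count was 19 to 30 without any other single library, but 8 without LPS replicate 1 and 6 without LPS replicate 2. The standard error of the log2 fold change was smaller with the offset for 37 of 37 genes, with a median of 0.0821 against 0.101 without it. That offset was fitted to these same libraries and entered as if known, so a smaller error is partly built in. Rfc3 kept a fold change of 1.23 and had the smallest adjusted p, 0.492. Ccne2 stood at 0.992-fold with the offset and 1.1-fold without it. Pcna stood at 1.05-fold, Pola1 at 1.02, Slbp at 1.14, Tk1 at 1.12 and E2f1 at 0.929. The 4 genes of nucleotide supply stood at 1.02 to 1.12-fold. The sign changed for 5 of 37 genes, and the median log2 fold change was 0.031. The part of RNA quality or library preparation in this gradient was not tested.

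Scaled by exon length, the genes spanned a broad range of levels in both groups. Levels are CPM per kb of exon. Exon lengths, 1.09 to 7.42 kb, join all exons of a gene's protein-coding GENCODE M21 transcripts, which may not be the annotation used for counting. Pcna stood first, at 147 ± 15.4 with 3A2 and 136 ± 2.53 with LPS (SD, n = 3 each). Rrm2 followed at 77.4 ± 2.93 with 3A2 and 73.2 ± 1.22 with LPS, and Rrm1 at 51.4 ± 3.54 with 3A2 and 48.5 ± 1.12 with LPS. The 6 subunits of the MCM helicase, which assemble in equal numbers, lay between 24.3 and 41.6 with 3A2 and between 25 and 41.4 with LPS. The 4 GINS subunits, which also assemble in equal numbers, spread further, from 4.38 for Gins2 to 21.7 for Gins4 with 3A2 and from 4.54 to 22 with LPS. This spread depends on the length used, 3900 bases for Gins2 and 1349 for Gins4. Before scaling by length they averaged 17.1 and 29.3 CPM with 3A2. The 5 clamp loader subunits lay between 9.32 for Rfc2 and 20.6 for Rfc1 with 3A2 and between 9.56 and 21 with LPS. Rfc2 was given 4995 bases, and before scaling by length it averaged 46.6 CPM with 3A2, above Rfc3 at 16.5. Cdc6 and Mcm10 were near the low end, at 6.48 and 6.3 with 3A2 and 6.36 and 7.04 with LPS.

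**Figure D5:**
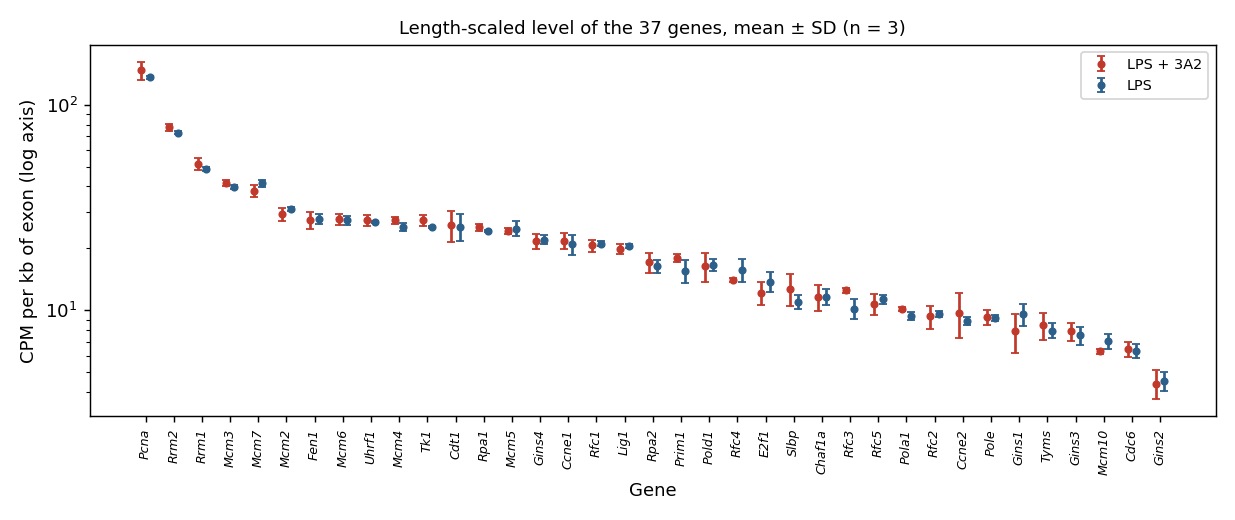
Level of each gene in CPM per kb of exon, mean ± SD over 3 libraries, on a log axis, with genes in order of their mean over both groups. Pcna is highest, at 147 with 3A2 and 136 with LPS, and Gins2 lowest, at 4.38 with 3A2 and 4.54 with LPS.

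Other genes of replication and of the entry into S phase were as little changed. In 5 related lists, 98 of 100 genes were tested by edgeR and 0 passed. DESeq2 and limma-voom also called 0. By edgeR 2 of the 98 had an unadjusted p under 0.05, where 6.51% of all genes tested had such a p. On the log2 scale 69 lay above 0 (70.4%, against 50.4% of all genes tested) and 29 below. Fold changes ran from 0.85 to 1.23. With the GC offset 55 of the 98 lay above 0, so the excess above 0 was smaller on that scale. Not every list moved in this way. Regulators of G1 and S phase had 19 of 27 above 0 in both fits (median log2 fold change 0.029 without the offset and 0.045 with it). The 19 other genes of nucleotide metabolism had 13 above 0, and 12 with the offset. Of 17 genes of origin recognition and firing, 13 lay above 0, but 8 with the GC offset (median log2 fold change 0.047 without it and -0.0024 with it). Wdhd1, which couples the helicase to the primase, stood at 1.13-fold (95% interval 0.973 to 1.32), and Topbp1, needed for firing, at 0.991. Of 23 other polymerase and fork genes, 15 lay above 0, but 10 with the GC offset (median 0.038 without it and -0.011 with it). Pole2, the second subunit of polymerase epsilon, averaged 19.6 ± 3.23 CPM with 3A2 and 15.8 ± 1.69 CPM with LPS, or 1.23-fold (0.9996 to 1.52). Top2a, the topoisomerase that separates sister DNA, stood at 0.993-fold.

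Rbl1 and Ppat were the 2 genes of these lists with an unadjusted p under 0.05. Rbl1 encodes p107, a repressive partner of E2F factors, and measured 53.8, 49.3 and 54.8 CPM with 3A2 and 45.5, 40.5 and 46 CPM with LPS. The groups did not overlap, and the fold change was 1.2 (95% interval 1.05 to 1.37). Adjusted p-values by edgeR were 0.719 without the GC offset and 0.436 with it. Ccnd1, cyclin D1 and the most abundant of the 27 tested regulators of G1 and S phase by count, stood at 1.02-fold (0.933 to 1.11). Ppat, which catalyses the committed step of purine synthesis, measured 54.4, 56.4 and 58.5 CPM with 3A2 and 48.2, 50.6 and 46.7 CPM with LPS. It also had groups that did not overlap, and stood at 1.16-fold (1.03 to 1.32; adjusted p = 0.729 by edgeR). Cad, of pyrimidine synthesis, stood at 0.956-fold. Of 12 chromatin assembly and maintenance genes 9 lay above 0, but 6 with the GC offset, with the histone acetyltransferase Hat1 at 1.11-fold. Dnmt1, the maintenance methyltransferase that Uhrf1 recruits, measured 341, 352 and 314 CPM with 3A2 and 359, 365 and 355 CPM with LPS. All its libraries with 3A2 lay below those with LPS, at 0.932-fold (0.851 to 1.02). Of the 98 tested genes of these lists, groups did not overlap for 4 that were higher with 3A2 and 5 that were lower. Over all 11498 genes tested these numbers were 671 and 743.

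The phases that follow S were also set beside the list. Of 34 genes of G2 and mitosis 14 lay above 0 and 20 below (41.2% above, against 50.4% of all genes tested). With the GC offset 11 of the 34 lay above 0. Their median log2 fold change was -0.0062 without the offset and -0.026 with it, and 0 passed by edgeR in either fit. Kif23, a kinesin of cytokinesis, measured 105, 104 and 104 CPM with 3A2 and 123, 118 and 116 CPM with LPS, or 0.877-fold (95% interval 0.792 to 0.971). By edgeR, adjusted p-values were 0.719 without the GC offset and 0.0812 with it. Mki67, a marker of cycling cells, measured 656, 607 and 595 CPM with 3A2 and 679, 690 and 657 CPM with LPS. Its fold change was 0.918 without the GC offset and 0.903 with it. Neither gene had overlapping groups. For 4 of the 34 all libraries with 3A2 lay below those with LPS, and for 0 above. Over all genes tested 743 of 11498 lay below in this way. By edgeR 1 of the 34 had an unadjusted p under 0.05, where 6.51% of all genes tested had such a p. Histone genes of the replication-dependent clusters, whose mRNA is made in S phase, lay below 0 in 42 of 58 tested genes. Their median was -0.082, and 0 passed by edgeR. The share above 0 was 27.6%, against 50.4% of all genes tested. Unadjusted p was under 0.05 by edgeR for 7 of 58, and for 749 of all 11498 genes. All libraries with 3A2 lay below those with LPS for 7 of 58, and for 743 of all 11498. H3c13 stood at 0.854-fold (0.767 to 0.952; adjusted p = 0.719 by edgeR). H1f4, a linker histone and the most abundant of them by count, stood at 0.919-fold (0.788 to 1.07), and its groups overlapped. The median deviation of the histone genes was -0.178 in LPS plus 3A2 replicate 3 and 0.0322 to 0.0498 in the other 5 libraries. No GC value could be matched for them, since the reference gives them older symbols.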

How the data were processed

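Raw read counts were deposited by the authors as a single table, with gene symbols down the side and 1 column per library. Per the labels' protocols, libraries were rRNA-depleted, strand-specific and paired-end. HISAT2 and edgeR are named without version or role, per the submitters' processing notes. With the counting program, annotation and strand setting not given in the sources used here, overlapping antisense genes are uncertain. The notes give the human build GRCh38, while 39282 of 40773 symbols match mouse RefSeq genes (GRCm38.p6). Typed cells in 3 unnamed columns were not used. Tyms-ps, a pseudogene named after a listed gene, had 0 counts, and other near-identical copies were not examined.

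Counts were filtered with filterByExpr (11498 genes left) and scaled by TMM. LPS plus 3A2 was compared with LPS in edgeR 4.0.16 under R 4.3.3, using its quasi-likelihood F test in robust form and no covariates. P-values were two-sided and Benjamini-Hochberg adjusted over all genes tested, with a threshold of 0.05. CPM used TMM-scaled totals. Every pair of libraries differed beyond sampling noise (chi-square per degree of freedom 3.46 to 23.5).

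The genes and lists were chosen with earlier results of these data known. Values in every library are given for genes whose groups do not overlap and for the smallest p and the largest count of each role, and Gins1, Cdt1 and Ccne2 were added after their values were seen. In other lists the smallest p and the largest count are named. Other fits left out each library, took the replicate number as a block, or used limma-voom (limma 3.58.1) or DESeq2 1.42.0. Further ones changed the scaling (DESeq2 size factors, or totals free of mitochondrial genes and of the 20 most abundant others) or the filter (none, or 1 CPM in every library). A lowess offset on transcript GC content (span 0.3) was added after the data were seen.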

Additional observations from a re-analysis of the deposited data

How the results depend on the processing

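None of the 37 genes passed in any of the 20 alternative fits. The number of genes above 0 was 18 to 25 over all of them, and the number with an interval within 1.5-fold was 34 to 36. The median log2 fold change of the list was 0.028 to 0.033 under the alternatives that kept all libraries and -0.012 to 0.051 with a library left out. Leaving out LPS plus 3A2 replicate 2 gave -0.012 and leaving out LPS replicate 1 gave -0.0065, so without the GC offset its sign rests on these libraries. With the offset the same omissions gave 0.0099 and 0.0074. The sign of the fold change held for 20 of 37 genes whichever library was left out.

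Over all genes tested edgeR called 0, and 749 had an unadjusted p under 0.05. DESeq2 and limma-voom called 0. Without a filter on low counts 16 were called, and with the replicate number as a block 1 was called. Leaving out a library gave 0 to 25. With the GC offset 23 were called. That number was 24, 30 and 29 when LPS plus 3A2 replicate 1, 2 or 3 was also left out, and 8, 6 and 19 for LPS replicate 1, 2 or 3. The cause of these shifts was not tested. Same-numbered libraries deviated from their group means with correlations of -0.0065, 0.0318 and -0.156, and differently numbered ones with -0.164 to 0.161. Deviations within a group sum to 0, so these values cannot show whether a number marks a shared day. With the replicate block 0 of the 37 genes passed, and the median was 0.028. At 42 to 1510 counts a library, the data leave room for differences within the intervals given. Those intervals are not adjusted over all genes tested. Rfc3, with an interval of 1.004 to 1.51, had an adjusted p of 0.748 by edgeR.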
